A study of Mus musculus with 9 samples.

Results

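CHD7 was found at 7 separate places in the stretch of chromosome 14 that lies between Bmp4 and Cdkn3, and at neither promoter. Bmp4 encodes a secreted ligand of the BMP family, and Cdkn3 encodes a phosphatase that acts on cyclin-dependent kinases. The 7 places are the peaks, out of 3761 in the CHD7 list, whose midpoint fell in the regulatory domain of either gene. A regulatory domain here is the region from 5 kb upstream to 1 kb downstream of the transcription start site (TSS), extended on both sides to the same region of the next protein-coding gene, or at most 1 Mb. The locus was selected on its number of peaks and on their closeness to each other, so both are given as a description only.

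The data are from CUT&RUN, in which an antibody directs a nuclease to cut and release the DNA around the protein it binds. The cells were wild-type (WT) cardiac progenitor (CP) cells at day 5 of differentiation of mouse embryonic stem cells towards cardiomyocytes. The 9 libraries comprised 3 with anti-CHD7, 3 with IgG as the negative control and 3 of input DNA with no antibody, and all 3 groups shared the WT genotype, the stage and the source of the cells. The deposited list gives 1 set of positions for the 3 anti-CHD7 replicates together, with no height, count or score, so that depth, replicate variation and peak strength are unknown, no peak list of the IgG or input libraries was analysed here, and the identity of the cells could not be checked against marker genes.

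CHD7 is an ATP-dependent chromatin remodeller of the CHD family, and mutations in its human counterpart cause CHARGE syndrome, in which heart, eye and inner ear defects occur together. BMP ligands bind receptor kinases at the cell surface, which phosphorylate SMAD proteins that then enter the nucleus and act on target genes. In the embryo, Bmp4 takes part in mesoderm formation, in the development of the cardiac outflow tract and in the patterning of limb, face and inner ear. Genes of this kind are often controlled by enhancers that lie far from the promoter, within long stretches without other protein-coding genes. Rubie, named as an RNA upstream of Bmp4 expressed in the inner ear, is a long noncoding RNA (lncRNA) gene of this stretch that has been linked to vestibular malformation in mice.

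The sequences of the 3 peaks that lie in introns of Rubie, and of the widest peak of the locus, are shown first because these 4 carried the densest grouping and the ISL1 and GATA consensus letters discussed further on. Each is the central 300 bp around the peak midpoint in GRCm38 (mm10), and capitals mark every match to the consensus sequences that were searched.
peak2962, chr14:46573363-46573662, + strand: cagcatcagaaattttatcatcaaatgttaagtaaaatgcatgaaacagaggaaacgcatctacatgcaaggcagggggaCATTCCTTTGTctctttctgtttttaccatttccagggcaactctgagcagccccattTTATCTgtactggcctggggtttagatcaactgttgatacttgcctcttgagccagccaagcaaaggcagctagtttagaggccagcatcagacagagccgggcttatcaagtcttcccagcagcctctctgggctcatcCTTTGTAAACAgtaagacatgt
peak2963, chr14:46578313-46578612, + strand: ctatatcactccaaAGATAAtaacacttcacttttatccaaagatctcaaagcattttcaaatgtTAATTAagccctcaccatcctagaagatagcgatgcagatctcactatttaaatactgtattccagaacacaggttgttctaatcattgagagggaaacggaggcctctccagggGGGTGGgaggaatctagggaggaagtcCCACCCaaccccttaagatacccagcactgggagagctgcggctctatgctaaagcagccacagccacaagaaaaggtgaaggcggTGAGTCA
peak2964, chr14:46583122-46583421, + strand: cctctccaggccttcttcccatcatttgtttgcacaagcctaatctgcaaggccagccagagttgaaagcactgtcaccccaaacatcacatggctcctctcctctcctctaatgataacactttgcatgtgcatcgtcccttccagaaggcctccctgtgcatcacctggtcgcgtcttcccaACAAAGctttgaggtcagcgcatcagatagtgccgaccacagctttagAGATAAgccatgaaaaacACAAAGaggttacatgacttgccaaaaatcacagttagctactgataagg
peak2966, chr14:46661914-46662213, + strand: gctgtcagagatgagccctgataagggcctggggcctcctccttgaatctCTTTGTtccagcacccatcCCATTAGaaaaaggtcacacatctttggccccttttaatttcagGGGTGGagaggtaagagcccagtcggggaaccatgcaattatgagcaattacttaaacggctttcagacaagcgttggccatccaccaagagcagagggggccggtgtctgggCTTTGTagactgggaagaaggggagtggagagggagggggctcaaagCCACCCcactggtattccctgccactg

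Shorter stretches are shown for 3 matches in peak2961, the peak closest to Bmp4, and peak2965, which lies outside any annotated gene. Capitals mark the match, and 12 bp are given on each side.
NKX2-5 match of peak2961, chr14:46470020-46470050, + strand: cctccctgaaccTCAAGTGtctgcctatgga
forkhead match of peak2965, chr14:46639546-46639576, + strand: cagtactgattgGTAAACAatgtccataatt
homeodomain match of peak2965, chr14:46639719-46639748, + strand: actgagtggaggTAATTAaggatccaagac

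Bmp4 (ENSMUSG00000021835.15) runs on the minus strand of chromosome 14 from 46383520 to 46390669, with its TSS at 46390669. Cdkn3 (ENSMUSG00000037628.10) runs on the plus strand from 46760541 to 46771669, with its TSS at 46760541. The genes are therefore divergent, and 369872 bp separate their TSSs. The domain of Bmp4 spanned 375073 bp and that of Cdkn3 391741 bp, and because each extends to the other, all 7 peaks fell in both. The list alone cannot assign any of them to 1 of the genes.

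The peak nearest to Bmp4 was peak2961, at chr14:46469724-46470325, 79355 bp upstream of the Bmp4 TSS and 290517 bp upstream of the Cdkn3 TSS. The peak nearest to Cdkn3 was peak2967, at chr14:46680929-46681326, 79414 bp upstream of the Cdkn3 TSS and 290458 bp upstream of the Bmp4 TSS. The outermost peaks were thus almost the same distance from the gene on their own side.

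The next 3 peaks lay close together near the middle of the interval. peak2962, at chr14:46573235-46573789, was 182843 bp from the Bmp4 TSS and 187029 bp from the Cdkn3 TSS. peak2963, at chr14:46578066-46578859, was 187793 bp from Bmp4 and 182079 bp from Cdkn3. peak2964, at chr14:46582438-46584105, was 192602 bp from Bmp4 and 177270 bp from Cdkn3. The nearest gene by TSS therefore changed from Bmp4 to Cdkn3 between the first and the second of these peaks.

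The remaining peaks were on the Cdkn3 side. peak2965, at chr14:46639359-46639879, was 248950 bp upstream of Bmp4 and 120922 bp upstream of Cdkn3. peak2966, at chr14:46661079-46663047, was 271394 bp upstream of Bmp4 and 98478 bp upstream of Cdkn3. By the nearest protein-coding TSS alone, 2 peaks would go to Bmp4 and 5 to Cdkn3.

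**Figure D1:**
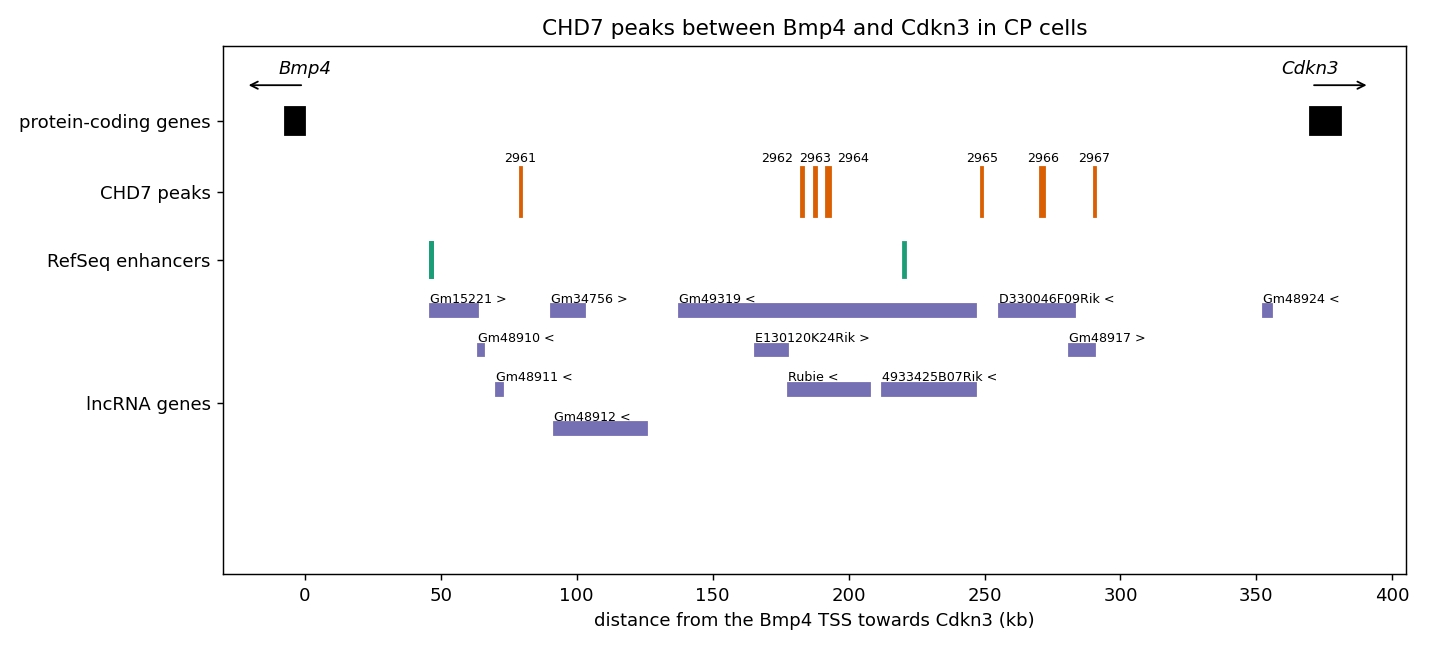
Map of the interval between Bmp4 and Cdkn3, drawn as the distance from the Bmp4 TSS in kb, with arrows for the direction of transcription and one row each for protein-coding genes, the 7 CHD7 peaks, RefSeq enhancers and lncRNA genes; very short features are drawn at a minimum width, and ECR2 and the CON3.8 fragment share 1 mark. The peaks sit well away from both promoters, and peak2962, peak2963 and peak2964 stand together within Rubie.

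With the domains as defined, no peak lay near an edge. The members closest to an edge were the outermost peaks. peak2961 was 89556 bp inside the Bmp4 domain and 74354 bp inside the Cdkn3 domain, while peak2967 was 74413 bp inside the Bmp4 domain and 106283 bp inside the Cdkn3 domain. Outside, the next peak beyond Bmp4 was peak2960, 207361 bp past the edge of the Bmp4 domain, and it fell in the domains of Ddhd1 and of Gm15217, a predicted gene next to Bmp4. The next peak beyond Cdkn3 was peak2968, 43960 bp past the edge of the Cdkn3 domain and in the domain of Cgrrf1. Among the protein-coding genes next to the locus, Gm15217, Ddhd1 and Cgrrf1 had 1 peak each in their domains, while Cnih1 and Gmfb had 0.

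No other protein-coding gene had more peaks in its domain than Bmp4 and Cdkn3. Of 21911 protein-coding genes, 4978 (22.7%) had 1 or more peaks, and 5 genes (0.0228%) had 7. The other 3 genes were Tle3 and Uaca, which neighbour each other, and Tpm1, which encodes a tropomyosin of the contractile apparatus. Domain length bears on such counts: the median domain of all genes was 90166 bp. Of the 723 genes whose domain was within 10% of the Bmp4 length, Bmp4 and Cdkn3 included, 341 (47.2%) had 1 or more peaks. Their median was 0, and the highest number, 7, was reached by Bmp4 and Cdkn3 alone.

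Counting between neighbouring protein-coding TSSs removes the double count. The interval between Bmp4 and Cdkn3 held 7 peaks, or 1.89 per 100 kb, against 0.138 per 100 kb over the genome. Among 21878 intervals, 1 other held 7 or more, that between Auts2 and Castor2, which is 2483106 bp long and had 0.282 peaks per 100 kb. Among the 2264 intervals of 200 to 800 kb, 64.7% held 0 peaks and the mean was 0.133 per 100 kb, and the 398 divergent ones among them also had a median of 0. The next intervals by count were Uaca to Tle3 and Lrmda to Kcnma1, with 6 peaks each, and then several with 5 peaks, of which 1700017B05Rik to Ppcdc and Lemd2 to Grm4 had the most per 100 kb. Of these, only the interval between 1700017B05Rik and Ppcdc was denser than that of Bmp4, at 2.82 peaks per 100 kb over 177484 bp.

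**Figure D2:**
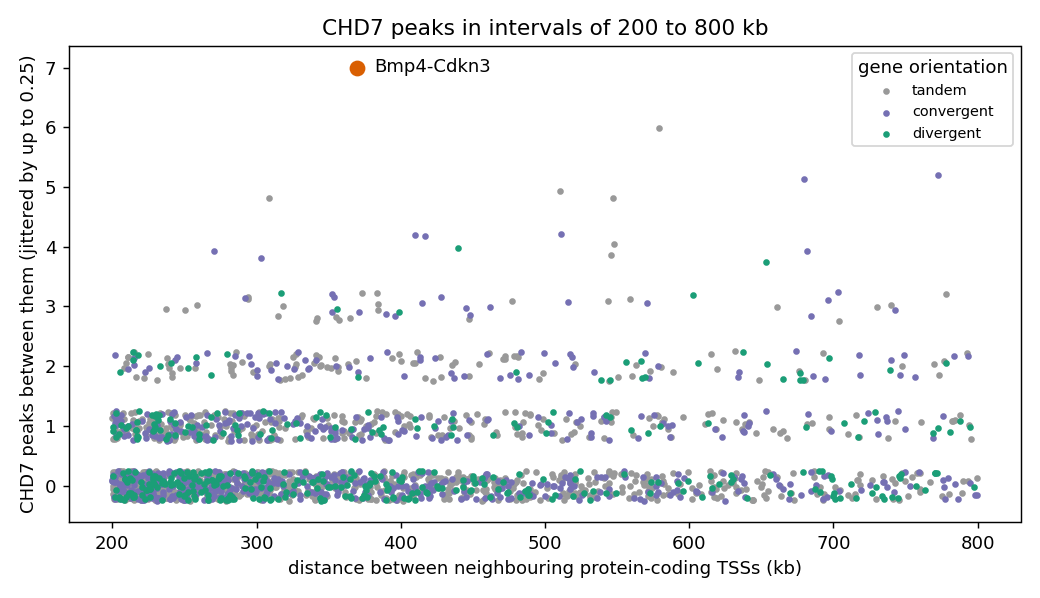
Number of CHD7 peaks in each of the 2264 intervals of 200 to 800 kb between neighbouring protein-coding TSSs (y axis, shifted at random by up to 0.25 so that points do not hide each other) against the length of the interval in kb (x axis), coloured by gene orientation. The Bmp4 to Cdkn3 interval, in orange and not shifted, is at 7 peaks and 369.9 kb, above every other interval of this length class.

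The spacing within the locus was uneven. From the first to the last midpoint the gaps between neighbouring peaks, measured from edge to edge, were 102909, 4276, 3578, 55253, 21199 and 17881 bp. Beyond the ends, 296397 bp without a peak preceded peak2961 and 149216 bp followed peak2967. Over the list, the median of 3740 gaps was 275324 bp and 66 gaps (1.76%) were under 5000 bp, and both gaps around peak2963 were of this class. The midpoints of peak2962, peak2963 and peak2964 lay within 9759 bp. Within a window of 10000 bp, set just above that span, lay 3 of 3720 runs of 3 consecutive peaks, the other two being near Ramp3 on chromosome 11 and near Arid3b on chromosome 9. Unlike the group in Rubie, whose middle peak was 182079 bp from the nearest protein-coding TSS, the middle peaks of those runs were 6458 bp from the TSS of Ramp3 and 5786 bp from that of Arid3b. Both were named after their values were seen.

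The peaks covered 6507 bp in all, which is 1.76% of the interval. Widths differed widely within the locus, though over a narrower range than in the other peaks, which ran from 246 to 3419 bp. The widest was peak2966 with 1969 bp, rank 121 of 3761, followed by peak2964 with 1668 bp, rank 251. peak2963 was 794 bp wide, peak2961 602 bp, peak2962 555 bp and peak2965 521 bp, and the narrowest was peak2967 with 398 bp, rank 3636. The locus therefore held both some of the widest and some of the narrowest peaks of the list. The median of the 7 was 602 bp, against 703 bp for the other 3754 peaks and 650.5 bp for the 918 other peaks more than 50 kb from a protein-coding TSS.

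GC content varied little among the members over whole peaks. In their central 300 bp it ran more widely, from 44.3% in peak2965 to 54.3% in peak2966. Over whole peaks it was 43.1% in peak2964, 43.4% in peak2965, 45.2% in peak2967 and 45.4% in peak2962. It was 47.0% in peak2963 and 47.5% in both peak2961 and peak2966. The median of 45.4% was close to the 45.7% of the other distant peaks, below the 47.5% of all other peaks and above the 43.8% of the interval as a whole. CpG dinucleotides numbered from 0.768 per 100 bp in peak2965 to 1.76 per 100 bp in peak2967, with a median of 1.02, against 1.16 in all other peaks and 0.943 in the other distant peaks. None of the 7 had the CpG density of the highest peak of the list, 10.9 per 100 bp. Repeats, as the soft-masked share of bases, made up 0% of peak2965, 5.03% of peak2967, 5.54% of peak2963, 7.93% of peak2962, 14.8% of peak2964, 18.7% of peak2966 and 21.3% of peak2961, against 26.0% of the interval and a median of 13.2% in all other peaks.

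**Figure D3:**
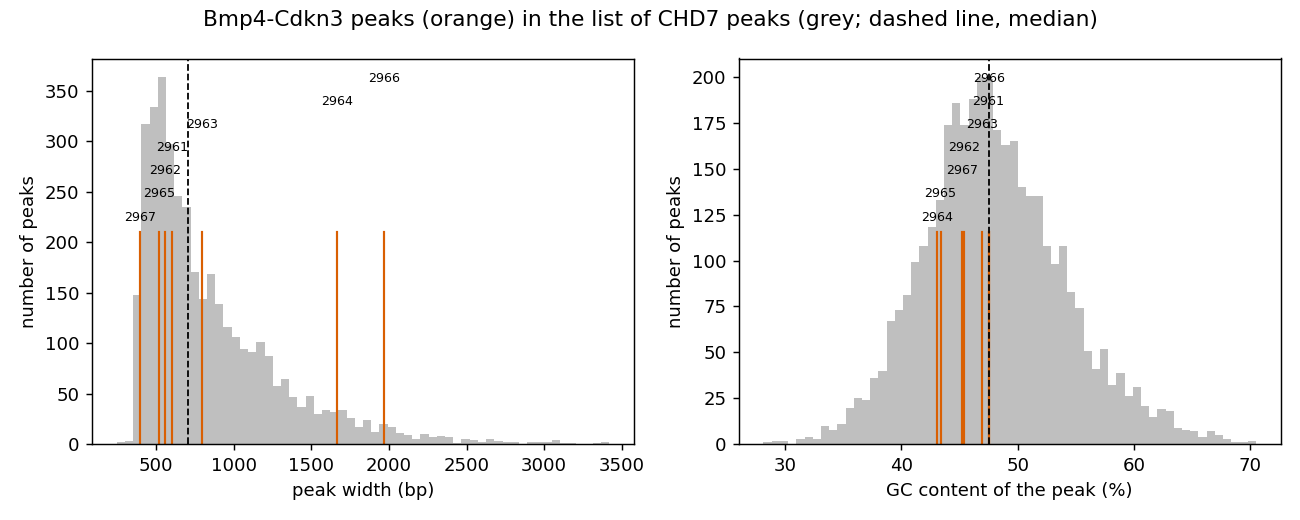
Distribution of peak width in bp (left) and GC content in % (right) over all 3761 CHD7 peaks in grey, with the 7 Bmp4 to Cdkn3 peaks as numbered orange lines and the median of the list as a dashed line. The widths reach from 398 to 1969 bp, within the 246 to 3419 bp of the other peaks, whereas GC content stays between 43.1% and 47.5%.

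The interval has no other protein-coding gene, but 13 noncoding genes are annotated between the TSSs, 12 of them lncRNA genes. These 12 cover 55.5% of the interval. The midpoints of 5 of the 7 peaks (71.4%) were in a lncRNA gene, against 341 of 3754 other peaks (9.08%) and 104 of the 918 other distant peaks (11.3%). The share in the locus is to be read beside the 55.5% of the interval that such genes take up, and the peaks of 1 locus share their surroundings and are not independent of each other.

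The 3 neighbouring peaks, peak2962, peak2963 and peak2964, were in introns of Rubie, a lincRNA gene on the minus strand from 46568263 to 46598425. The annotation gives Rubie 3 transcripts with different starts, at 46575847, 46587983 and 46598425. peak2962 was 2335 bp downstream of the first of these, in intron 1 of that transcript. peak2963 was 2615 bp upstream of the same start and in intron 6 of the transcript that begins at 46587983. peak2964 was 4712 bp downstream of that start in intron 4, and it covered 23 bp of an exon (1.38% of the peak). The same peaks were also in introns of Gm49319, a noncoding gene on the same strand from 46528176 to 46637408 that encloses Rubie.

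Further along, peak2966 was in intron 1 of the lincRNA gene D330046F09Rik, 11712 bp downstream of its TSS, and 9639 bp from the nearest TSS of any gene, that of Gm48917. peak2967 overlapped the end of Gm48917, with its midpoint in intron 3 and 156 bp of exon (39.2% of the peak). peak2961 and peak2965 overlapped no annotated gene, and the nearest TSSs to them were those of Gm48911 at 6504 bp and of 4933425B07Rik at 2196 bp. The function of these predicted transcripts is not given in the annotation, and their expression was not measured in these data.

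The enhancers that RefSeq lists in the interval did not overlap the peaks, and no other enhancer set or histone mark was compared. RefSeq lists 3 enhancer intervals between the TSSs. ECR2, recorded as active in posterior lateral plate mesoderm, lies at chr14:46436551-46437017, 46115 bp upstream of the Bmp4 TSS and 32706 bp from peak2961. The CON3.8 fragment, recorded in limbs and the orofacial region, lies within it at chr14:46436608-46437003. The VISTA enhancer mm387, recorded in branchial arch, nose and facial mesenchyme, lies at chr14:46610670-46611777, 220554 bp upstream of Bmp4 and 26564 bp from the edge of peak2964. None of the 3 overlapped a CHD7 peak. Over the genome, 25 of 1015 RefSeq enhancer intervals (2.46%) overlapped one, so that 0 of 3 is near that background.

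Sequence features of the peaks were examined with 16 searches of short consensus sequences in the central 300 bp, on both strands. The letters were AGATAA for GATA factors, CATAAA for caudal homeodomain factors, TAATTA for homeodomain factors, CTAATGG or CTAATTG for ISL1, TCAAGTG for NKX2-5, GGTGTGA for T-box factors, CAGCTG or CATCTG for E-box factors, GGAATG for TEAD, TGTTTAC for forkhead factors, ACAAAG or CCATTGT for SOX factors, GTCTAGAC or GGCGCC for SMAD proteins, TGANTCA for AP-1, ATGCAAAT for octamer factors and GGGCGG or CCACCC for SP and KLF factors. MEF2 and CTCF were searched by their degenerate consensus. A match is a run of letters and not an observed binding site. The same searches were made in all other peaks and in 1168 tiles of 300 bp that fill the rest of the interval.

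The letters AGATAA, searched for GATA4 and its relatives in cardiac progenitors, were in the windows of the 3 Rubie peaks alone. These matches lay 11 bp before the midpoint of peak2962, 135 bp before that of peak2963 and 83 bp after that of peak2964. Other spellings around the GATA core were not searched. The printed window of peak2966, for one, holds tgataa, so the absence elsewhere applies to AGATAA only. The share of 3 of 7 stood beside 17.3% of all other peaks, 21.2% of the other distant peaks and 17.8% of the tiles. Over whole peaks, peak2966 had 4 more GATA matches and peak2964 a further one, so that 4 of the 7 peaks held 8 matches, against 36.8% of other whole peaks with any.

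ISL1, a LIM homeodomain factor of second heart field progenitors, had its consensus in peak2966 alone. The match CTAATGG occurred there at both 80 bp and 550 bp before the midpoint, the first of them within the printed window on the minus strand. A match was in the central window of 5.19% of all other peaks, 7.84% of the other distant peaks and 4.97% of the tiles. Over whole peaks, 13.4% of the other peaks had one. The general homeodomain letters were in peak2963 and, at 2 places, in peak2965, against 6.45% of other peaks and 8.48% of tiles. NKX2-5, a cardiac homeodomain factor, had a match 8 bp from the midpoint of peak2961, against 4.42% of other peaks and 4.28% of tiles.

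The forkhead consensus was in peak2962 and peak2965, against 4.58% of other peaks and 4.37% of tiles. SOX matches were in 5 of the 7 windows, those of peak2962, peak2964, peak2965, peak2966 and peak2967. The share was 28% in other peaks, 32.2% in the other distant peaks and 29.2% in tiles. SP and KLF matches were in the 4 windows of peak2961, peak2963, peak2966 and peak2967. The share was 30.9% in other peaks, 24% in the other distant peaks and 20.8% in tiles. Over whole peaks, SOX letters and SP and KLF letters were each in 5 of the 7, against 55.8% and 56.5% of other whole peaks. The remaining matches were in 1 window each, with TEAD in peak2962 (17.2% of other peaks), E-box letters at 2 places in peak2961 (35.9%) and AP-1 in peak2963 (9.78%). Over whole peaks, TEAD and E-box letters were each in 3 of the 7, against 39.1% and 66.2% of other whole peaks. With 7 windows, shares of 1 or 2 are within a small count of any of these backgrounds.

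Some matches shared bases. In peak2962 a TEAD and a SOX match shared 1 base, and a second SOX match shared 2 bases with the forkhead match, which is why their capitals run together in the printed sequence. Caudal, MEF2, T-box, SMAD, octamer and CTCF letters were in 0 of the 7 windows. Among other peaks, the share with a match was 13.7% for caudal, 2.8% for MEF2, 4.53% for T-box and 1.86% for octamer letters, and 20.4% of the tiles had a caudal match. Over whole peaks, caudal letters were in 3 of the 7, against 35.8% of other whole peaks. The SMAD letters searched were in 3.68% of other peaks and 0.856% of tiles, and CTCF in 0.986% of other peaks and 0.171% of tiles. At such shares, 0 of 7 windows carries little information for any of these letters.

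Counted over all searches, peak2962, peak2963 and peak2966 had 5 matches each, peak2961 and peak2965 had 4, and peak2964 and peak2967 had 3. The median was 4, against 2 in all other peaks, in the other distant peaks and in the tiles. The lowest number in the locus, 3, was reached or passed by 38.9% of the other peaks and by 35.5% of the tiles. This threshold was taken from the locus itself, so that all its windows reach it by construction. As a density this was 13.8 matches per kb, against 7.61 in other peaks and 7.06 in the tiles. Over whole peaks the locus had 9.07 per kb, and no density of other whole peaks is given to set beside it. The list of consensus letters was drawn up with earlier results of these data known, and no test was made.

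**Figure D4:**
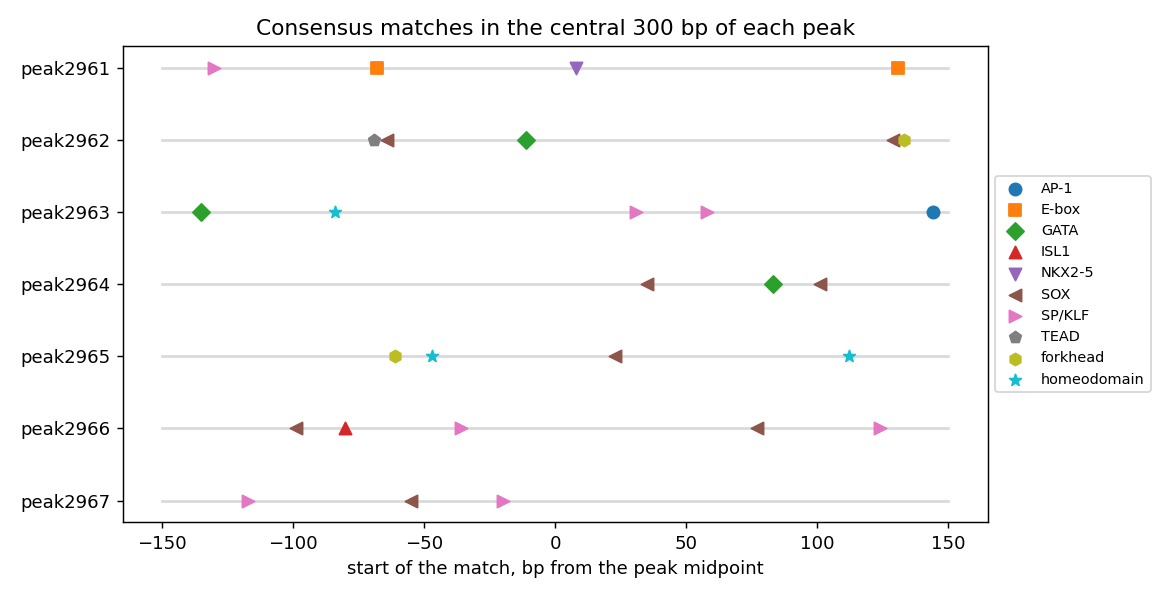
Position of every consensus match in the central 300 bp of the 7 peaks (rows), as the distance of its first base from the peak midpoint in bp, with a colour and symbol for each consensus. Matches to the GATA letters AGATAA are in peak2962, peak2963 and peak2964, the ISL1 match is in peak2966, and each window holds 3 to 5 matches.

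The peaks shared no long run of identical bases with each other. Similarity short of identity was not measured, and no background of other pairs is given. Among the 21 pairs of whole peaks, the longest run of identical bases on either strand was 9 to 13 bp, with a median of 10 bp.

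The other intervals rich in peaks differed from this one in some measures and not in others. The smallest gap between neighbouring peaks was 3578 bp between Bmp4 and Cdkn3, 47684 bp between Auts2 and Castor2, 10773 bp between Uaca and Tle3 and 2314 bp between Lrmda and Kcnma1. The number of peaks in a lncRNA gene was 5 of 7 here, 1 of 7 between Auts2 and Castor2, and 0 in each of the other 4 intervals. The share of those other intervals taken up by lncRNA genes is not given, so these numbers have no background to be read beside. The median number of consensus matches per window was 4 here and 1 or 2 in the others. The GATA letters were in 3 of 7 windows here, and in 2 of 5 both between 1700017B05Rik and Ppcdc and between Lemd2 and Grm4. They were in 1 of 7 between Auts2 and Castor2, and in 1 of 6 both between Uaca and Tle3 and between Lrmda and Kcnma1. The share with GATA letters was therefore not particular to the locus. Median width was 602 bp here, 791 bp between Auts2 and Castor2 and 587 bp between Uaca and Tle3, so that width did not set the locus apart. These are single intervals, and the differences have no replicate error.

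Other genes of the BMP pathway had fewer peaks than Bmp4. Of a list of 38 pathway genes, 19 (50%) had 1 or more peaks, and without Bmp4 18 of 37 (48.6%) did, beside the 22.7% of all protein-coding genes. The median domain of the list was 288142 bp, over 3 times that of all genes. Among genes with domains of about the length of that of Bmp4, the share was 47.2%. That class had a longer median domain, 371011 bp, and no share among genes with domains of the lengths in the list was computed.

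Among the ligands, 5 of 7 had a peak. Bmp2, which acts with Bmp4 in the early heart, had 3 peaks in a domain of 1601253 bp, the nearest 12154 bp from its TSS. Bmp5 and Bmp7 had 2 peaks each and Bmp10, a ligand of the trabecular myocardium, 1 peak. Bmp6 and Gdf2 had 0. No other ligand had more than 3.

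Of 7 receptor genes, Bmpr1b had 2 peaks, Bmpr2 had 1, and Bmpr1a, Acvr1, Acvrl1, Acvr2a and Acvr2b had 0. Of 6 SMAD genes, Smad1, which carries the signal, had 3 peaks, the inhibitory Smad7 had 2, and Smad6 and the common partner Smad4 had 1 each. Of 12 antagonists and modulators, 5 had a peak, with 3 for Bmper, which binds BMP ligands outside the cell, and 1 each for Cer1, Fstl1, Grem1 and Twsg1. Nog and Chrd, which encode ligand traps, had 0. Of 6 target genes, Id2 and Msx1 had 2 peaks and Msx2 had 1.

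Of 23 genes of the cyclin-dependent kinase cell cycle, the list that fits Cdkn3, 13 (56.5%) had 1 or more peaks, and 12 of 22 (54.5%) did without Cdkn3, beside the 22.7% of all protein-coding genes. The median domain was 135892 bp, against 90166 bp over all genes, and no share among genes with domains of that length was computed. Cdkn3 had 7 peaks and Ccnd2, a D-type cyclin, had 2. The other 11 had 1 each, among them the kinase genes Cdk1, Cdk4 and Cdk6 and the inhibitor genes Cdkn1a and Cdkn1c. Of the 12 other genes with a peak, 7 had their nearest peak closer to the TSS than the 79414 bp of Cdkn3 and 5 had it farther away, from 209 bp for Cdk4 to 336781 bp for Cdkn1c. The 7 peaks of Cdkn3 are the same 7 that were counted for Bmp4.

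**Figure D5:**
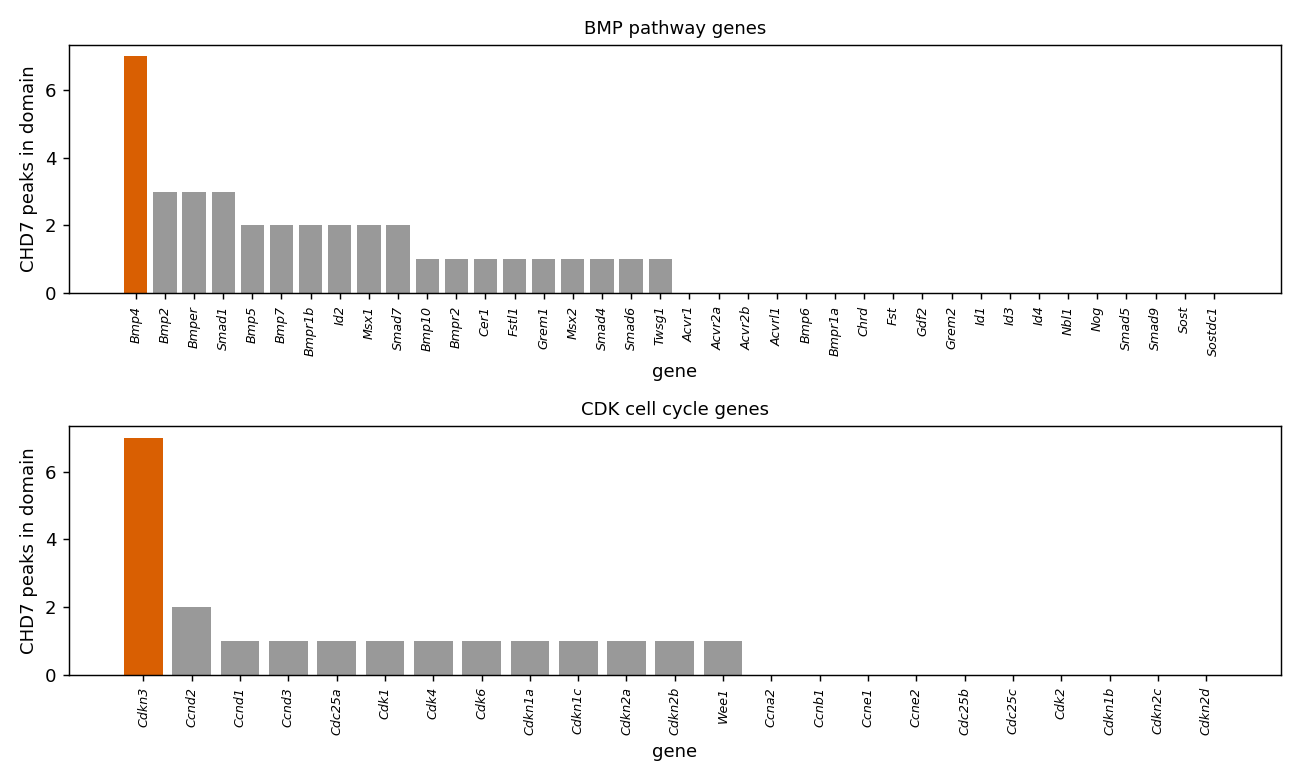
Number of CHD7 peaks in the regulatory domain of each of 38 BMP pathway genes (top) and 23 cell cycle genes (bottom), with Bmp4 and Cdkn3 in orange. Both stand at 7, and the next highest numbers are 3 in the first list and 2 in the second.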

How the data were processed

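CUT&RUN libraries with anti-CHD7, IgG or input DNA (3 replicates of each, 9 in all) came from CP cells at day 5. Per the labels and the methods of the study, the authors trimmed reads with fastp 0.20.1, aligned them to mm10 with BWA 0.7.17.4, removed duplicates by molecular identifiers, called peaks per sample with MACS2 2.1.2 against IgG and kept those seen in at least 2 of the 3 replicates. The deposited file is a single list of peak positions, a start and an end in bp, that pools the anti-CHD7 replicates. Starts were read as counted from 0 and are printed counted from 1. The threshold and the joining of overlapping peaks are not given in the sources used here. Depth is unknown, because the list holds no counts.

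Genes were taken from GENCODE M21 on GRCm38.p6, with 1 TSS for each of 21911 protein-coding genes. Of genes sharing a symbol, 1 was kept. Distances are from the peak midpoint to a TSS. Enhancers were read from the RefSeq annotation of GRCm38. Sequences were read from the GRCm38 genome of RefSeq with pysam 0.24.0. Domains, counts, merging and searches were checked on planted data with known answers. No test across samples could be made, and no p-value is given.

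The members and lists were chosen with earlier results of these data known. The genes named are Bmp4, Cdkn3, the 2 protein-coding genes on each side, those flanking the 5 other intervals with the most peaks, the genes with the highest counts in the BMP and cell cycle lists and the noncoding genes at the peaks. Further names are given to complete small counts, and were chosen after their values were seen.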

Additional observations from a re-analysis of the deposited data

How the results depend on the processing

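The list pools the replicates, and leaving out each in turn was not run for that reason. No paired analysis was possible because the deposited positions carry no value for single replicates.

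The count of 7 peaks in each domain rested on the extension of the domains over a stretch free of other protein-coding genes. With lncRNA genes also bounding the domains, Bmp4, Cdkn3 and both together had 0, 0 and 0 peaks, and Rubie and E130120K24Rik had 3 each. With extensions of at most 100 kb the numbers were 1, 2 and 0, and with at most 200 kb Bmp4 had 4 and both together 3. By the single nearest TSS, Bmp4 had 2 and none was shared (0). By the 5 kb and 1 kb regions alone all 3 numbers were 0, and with only peaks at least as wide as the median of the list they were 3, 3 and 3.

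Counting any overlap, the most upstream TSS, an extension of 500 kb and starts counted from 1 kept the 3 numbers at 7. So did merging of peaks closer than 1 kb. Merging peaks closer than 5 kb or 10 kb joined peak2962, peak2963 and peak2964. This lowered each number to 5, a change within 1.5 times. With Gm15217 given no domain, an alternative chosen after seeing the data, the 3 numbers were 8, 7 and 7. Mean GC content was 45.7% in whole peaks and 47.5% in the central 300 bp. Consensus matches were 13.8 per kb in the central 300 bp and 9.07 per kb in whole peaks. With a central window of 500 bp, 1 peak had a caudal match and 2 each had an E-box or TEAD match, and over whole peaks these were 3 each and NKX2-5 was in 2. With 200 bp, forkhead letters were in 1 peak and AP-1 in 0. The other counts stayed within 1.5 times. The number of peaks limits the precision of every share.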
